A study of Mus musculus with 6 samples.

Results

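A set of 10 genes through which cells receive WNT signals was followed: the frizzled receptors Fzd2, Fzd3, Fzd5, Fzd7, Fzd8 and Fzd10, the co-receptors Lrp5 and Lrp6, and the adaptors Dvl1 and Dvl2. They were chosen by gene symbol, with earlier results of these data known, and all 10 were found among the 23353 genes listed. RNA was sequenced from day 4 embryoid bodies (D4 EBs, clusters of stem cells that differentiate in suspension) grown in serum without LIF. Wildtype EBs came from W9.5, a mouse embryonic stem cell (mESC) line, and EVX1-Δfs EBs came from clone 14, an edited W9.5 line. In that clone CRISPR/Cas9 had left small frameshift deletions in both alleles of Evx1, in the part encoding the homeodomain. There were 3 libraries of each genotype. Per the protocol, samples to be compared were started together, and libraries with the same replicate number were taken as such pairs, which the labels do not state by number. Only 1 edited clone was sequenced, so the frameshift and any other property of that clone cannot be told apart.

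WNT proteins are secreted, lipid-modified ligands that bind the extracellular cysteine-rich domain of a frizzled, a receptor with a bundle of membrane-spanning helices. In the β-catenin branch of the pathway the ligand also engages LRP5 or LRP6, the receptor complex recruits dishevelled, and Axin is drawn to phosphorylated proline-rich motifs in the LRP tail, which stops the destruction of β-catenin. In gastrulating embryos and in EBs this branch drives formation of the primitive streak and mesoderm, and frizzled and dishevelled also act in planar cell polarity without an LRP.

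The part of each frizzled that contacts dishevelled includes a short motif just inside the membrane, lysine, threonine, any 3 residues and tryptophan. Translated coding sequences of all 6 frizzled genes held it exactly 1 time, but at different distances from the end of the protein. From the first residue of the motif to the end there were 23 residues in both Fzd2 and Fzd7, 56 in Fzd10, 61 in Fzd5, 80 in Fzd8 and 165 in Fzd3. The stretches encoding it are shown to let the receptors be compared where they meet the adaptor, for 5 of the 6 genes. They are given 5′ to 3′ on the coding strand, with the motif codons in capitals and 4 codons on either side, and were read from NCBIM37, the assembly also called mm9.
Fzd2, chr11:102467675-102467716, plus strand: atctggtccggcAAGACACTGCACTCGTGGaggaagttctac
Fzd7, chr1:59541439-59541480, plus strand: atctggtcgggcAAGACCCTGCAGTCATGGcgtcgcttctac
Fzd5, chr1:64781573-64781614, minus strand: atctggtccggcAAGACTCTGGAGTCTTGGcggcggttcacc
Fzd10, chr5:129108659-129108700, plus strand: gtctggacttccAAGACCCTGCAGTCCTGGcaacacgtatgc
Fzd3, chr14:65830932-65830973, minus strand: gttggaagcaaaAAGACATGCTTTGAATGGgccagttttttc

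LRP5 and LRP6 each held 3 copies of the motif proline, proline, proline, serine or threonine, proline in the translated sequence. The stretch encoding the last copy is shown for both, with the motif codons in capitals.
Lrp5, chr19:3585036-3585074, minus strand: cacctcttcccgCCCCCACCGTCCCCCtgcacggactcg
Lrp6, chr6:134400810-134400848, minus strand: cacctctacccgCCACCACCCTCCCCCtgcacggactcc

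These genes belong to families of close relatives, which bears on whether their reads could be told apart. Over aligned residues Fzd2 and Fzd7 were 79.4% identical, Fzd5 and Fzd8 71.0%, Lrp5 and Lrp6 69.6%, and Dvl1 and Dvl2 65.9%. Fzd10 shared 67.0% with Fzd9. Over whole transcripts, no pair of these genes and their paralogues within a family shared a run of 50 bases, and identity over bases was not measured. The longest identical run between members was 38 bases, between Fzd2 and Fzd7.

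Reads assigned to genes numbered 7597879 to 9914471 per library, and 15998 to 16479 genes were detected. Evx1 itself had 2358, 2176 and 2400 normalised counts in the wildtype libraries and 2354, 2516 and 2012 in the EVX1-Δfs libraries, so its count does not check the edit, as a frameshift need not alter the transcript level. Part of the mesoderm markers differed between the genotypes. For comparison, 2.95% of all genes tested were called lower and 2.08% higher at a limma adjusted p under 0.05. With the replicate number as a block 1.11% were called lower. Of the 7 streak and nascent mesoderm markers tested 4 fell, and their summed normalised count ranged from 14071 to 17079 in wildtype and from 9779 to 12665 in EVX1-Δfs libraries. Paraxial markers fell in 4 of 5 genes tested (sums of 850 to 1029 and 469 to 645), lateral and cardiac markers in 2 of 5 (3183 to 5288 and 1773 to 2342) and haematoendothelial markers in 3 of 7 (3054 to 4023 and 1798 to 2039). The largest part of the lateral and cardiac sums was Hand1, at 2232 to 3922 in wildtype and 900 to 1332 in EVX1-Δfs libraries. Hand2, Tbx20 and Gata4 of that list had groups that overlapped. Definitive and anterior endoderm markers rose in 3 of 5 genes, Sox17, Foxa2 and Cer1 (sums of 415 to 602 and 632 to 969). Most of the difference in these sums was Cer1, at 24.9 to 50.4 in wildtype and 294 to 431 in EVX1-Δfs libraries. Hhex went the other way, at 57.4 to 76.1 and 40.1 to 49.6, without a call, and Gsc had groups that overlapped. In the epiblast list 1 of 6 markers rose (12384 to 19363 and 16059 to 20329). No visceral endoderm marker was called among the 3 tested, and Afp, Ttr, Apoa1 and Amn averaged under 10. The sums of that list (5220 to 6454 and 4661 to 5008) were nearly all Apoe. It had 6399, 5191 and 5366 normalised counts in wildtype and 4703, 4626 and 4962 in EVX1-Δfs libraries, so the sums say little about the other visceral endoderm markers. Neurectoderm markers were near the bottom of the range, with Sox1, Six3, Hesx1 and Neurog2 under 10 on average and sums of 7.65 to 17.2 and 15.9 to 33.4. With the replicate number as a block, 2 streak, 3 paraxial, 1 lateral and cardiac and 3 haematoendothelial markers were called lower, 1 definitive and anterior endoderm marker was called higher and no epiblast marker was. The part of these marker differences in the receptor results was not tested, and in bulk RNA fewer cells of a type and less RNA per cell cannot be told apart.

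All 10 receptor and adaptor genes passed the filter on low values, a normalised count of 10 or more in 3 or more libraries. Their levels were first ordered within wildtype EBs, as normalised counts per kb of annotated exon (mean ± SD, n = 3), the scale on which genes can be compared with each other. Lrp5 led at 355 ± 27.3, with every library above those of the next gene. Fzd10 (255 ± 26.3), Fzd7 (237 ± 16.3) and Dvl2 (213 ± 7.66) followed, and neighbours among these overlapped. Fzd2 (182 ± 16.9) and Dvl1 (154 ± 26.8) overlapped with each other, and Lrp6 stood below them at 84.0 ± 8.47. The remaining 3 frizzled genes were present at far lower levels. Fzd3 and Fzd5 were alike at 14.6 ± 1.90 and 13.8 ± 0.786, and Fzd8 was lowest at 6.94 ± 1.78. The wildtype EBs thus had 3 abundant frizzled transcripts, Fzd10, Fzd7 and Fzd2, and 3 scarce ones.

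The order in EVX1-Δfs EBs differed near the top. Lrp5 at 262 ± 33.8 per kb overlapped with Fzd7 at 242 ± 32.9, which overlapped with Fzd2 at 205 ± 20.5, and Fzd2 in turn overlapped with Fzd10 at 188 ± 8.74. Dvl1 (156 ± 19.6) and Dvl2 (152 ± 37.6) overlapped, Lrp6 stood at 96.8 ± 8.46, and Fzd3, Fzd5 and Fzd8 remained the scarce frizzled genes at 19.1 ± 1.86, 15.9 ± 4.78 and 12.5 ± 2.16. Ranked by mean level among the 10 genes, Fzd10 was number 2 in wildtype and number 4 in EVX1-Δfs EBs, and Dvl2 was number 4 and number 6.

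**Figure D1:**
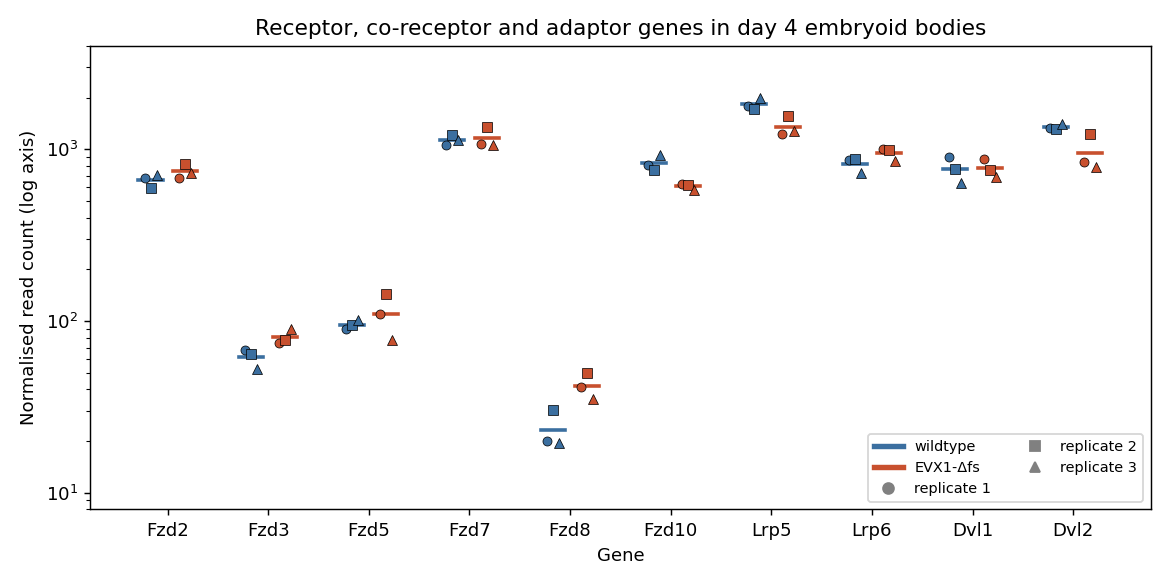
Normalised read count (log axis) of the 10 genes in each library. Blue marks wildtype, red EVX1-Δfs, symbols the replicate number and horizontal lines the mean of 3 libraries. All 3 red points lie below all blue points for Fzd10, Lrp5 and Dvl2 and above them for Fzd3 and Fzd8.

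The comparison of EVX1-Δfs with wildtype EBs asked which of the receptor genes differ when EVX1 is disrupted. Fzd10, Lrp5 and Dvl2 fell and none of the 10 rose at a limma adjusted p under 0.05. Of all 13136 genes tested, 2.95% were called lower and 2.08% higher. Because the 10 genes were chosen with earlier results of these data known, their number of calls is no independent evidence against these shares. In 3 genes, Fzd10, Lrp5 and Dvl2, every EVX1-Δfs library lay below every wildtype library, a pattern that 14.7% of all genes tested showed, and in 2, Fzd3 and Fzd8, every one lay above, a pattern shown by 12.2%. The median log2 fold change of the 10 genes was 0.09, against 0.000216 for all genes tested, with 3 below 0 and 7 above. The study's own text, written from these libraries, names Lrp5 and Dvl2 among lower WNT pathway genes, so their appearance here is no independent evidence of direction.

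Fzd10, a frizzled of the subfamily that includes Fzd4 and Fzd9, had normalised counts of 806, 757 and 923 in the wildtype libraries and 631, 620 and 577 in those of EVX1-Δfs, in the order of replicates 1 to 3 here and in every such list that follows. Every EVX1-Δfs library was below every wildtype library, and the EVX1-Δfs values were close together. The means were 828 ± 85.5 and 610 ± 28.4 (SD, n = 3). On the log2 scale the fold change was -0.44 ± 0.12 (SE), with a 95% interval of -0.68 to -0.19 and a limma adjusted p of 0.0338. Within same-numbered pairs the log2 differences were -0.35, -0.29 and -0.68. The gene is a single exon at chr5:129106719-129109968 on the plus strand (NCBIM37), and the annotation lists a pseudogene entry of the same name inside it, from 129106806 to 129109236, which the counting may have treated as the same gene.

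Fzd8, a relative of Fzd5, had the largest fold change above 0 of the 10 genes, on few reads. Its normalised counts were 20.1, 30.1 and 19.5 in wildtype and 41.1, 49.6 and 35.3 in EVX1-Δfs libraries, and the groups did not overlap. These values rest on 17 to 44 reads per library. The log2 fold change was 0.84 ± 0.28 (SE), with an interval of 0.25 to 1.43, and the limma adjusted p of 0.0813 missed the threshold. The gene is a single exon at chr18:9212854-9216199 on the plus strand.

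Fzd3, a frizzled known mainly from planar polarity and axon guidance, also had groups that did not overlap. Wildtype libraries had 67.9, 64.6 and 52.7 normalised counts and EVX1-Δfs libraries 74.7, 77.8 and 89.6. The log2 fold change of 0.38 ± 0.20 (SE) had a limma adjusted p of 0.259 and an interval of -0.04 to 0.81, so a difference was not detectable with these libraries. Fzd3 lies at chr14:65819863-65881300 on the minus strand.

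The other abundant frizzled genes, Fzd7 and Fzd2, had overlapping groups. Fzd7, a main WNT receptor of undifferentiated mESCs and of the early embryo, had 1060, 1217 and 1132 normalised counts in wildtype and 1079, 1343 and 1061 in EVX1-Δfs libraries. Its log2 fold change was 0.02 ± 0.12 (SE), with an interval of -0.22 to 0.27 and a limma adjusted p of 0.925. Fzd2, the closest relative of Fzd7 among the 10 genes, had 676, 592 and 711 in wildtype and 681, 826 and 724 in EVX1-Δfs libraries. EVX1-Δfs was higher in all 3 same-numbered pairs, by a log2 difference of 0.48 in pair 2 and of 0.03 or less in the others, and the test gave 0.17 ± 0.12 (SE) at a limma adjusted p of 0.410. Fzd7 lies at chr1:59538991-59543791 and Fzd2 at chr11:102465745-102469372, both as single exons on the plus strand.

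Fzd5, at chr1:64777134-64784324 on the minus strand, was the most variable of the frizzled genes in the edited clone. Wildtype libraries had 89.9, 94.7 and 101 normalised counts and EVX1-Δfs libraries 109, 143 and 77.2, so the lowest and the highest values were both in EVX1-Δfs EBs. Its fold change of 0.16 ± 0.20 (SE) on the log2 scale had a limma adjusted p of 0.676 and became -0.05 without EVX1-Δfs replicate 2.

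**Figure D2:**
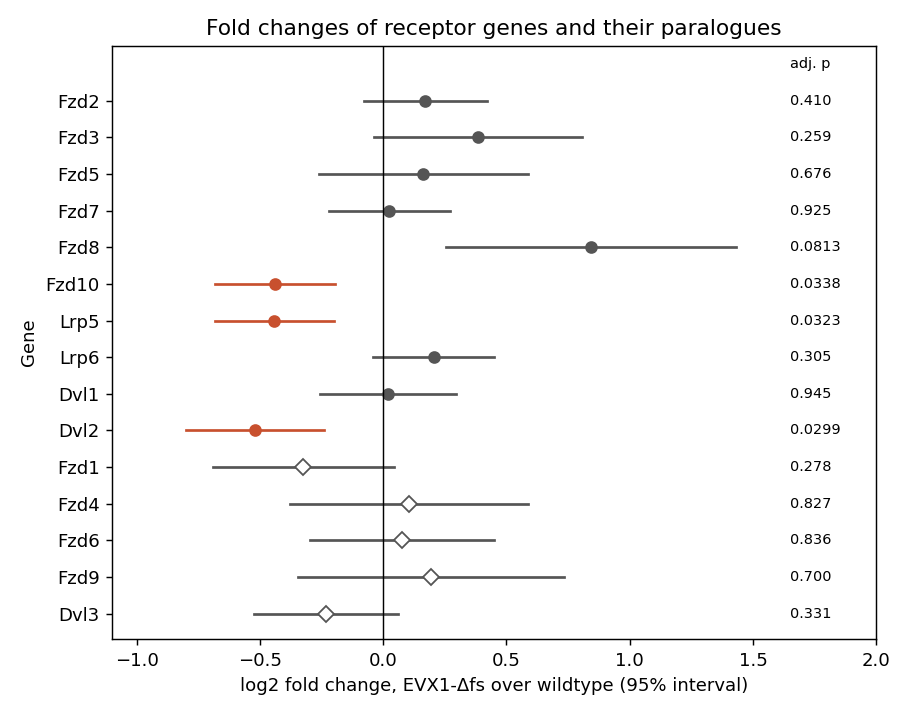
Log2 fold change of EVX1-Δfs over wildtype (horizontal axis) with its 95% interval for the 10 genes (filled circles) and 5 paralogues (open diamonds), with limma adjusted p at the right. Red marks the 3 genes called lower, whose intervals end at -0.19 to -0.24, and the interval of Fzd8 starts at 0.25 although its adjusted p was 0.0813.

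The 6 frizzled genes were also taken as a pool. Their summed normalised count was 2720, 2755 and 2939 in wildtype and 2616, 3060 and 2564 in EVX1-Δfs libraries, which overlapped. The make-up of that pool, as shares of the summed level per kb, was 35.9%, 33.9% and 37.9% Fzd10 in wildtype and 29.8%, 25.4% and 27.7% in EVX1-Δfs libraries. Fzd10 thus had the highest mean share in wildtype EBs at 35.9% ± 2.03 and the third highest in EVX1-Δfs EBs at 27.6% ± 2.20 (SD, n = 3). Fzd2 made up 25.6% ± 1.70 and 30.0% ± 1.20, with groups apart, and Fzd7 33.5% ± 2.97 and 35.4% ± 1.58, with groups that overlapped. The shares of the scarce genes were 2.07% ± 0.357 and 2.82% ± 0.440 for Fzd3, and 0.985% ± 0.284 and 1.83% ± 0.170 for Fzd8, both with groups apart. Shares of 1 pool are tied to each other, so a lower share of Fzd10 raises the others, and no test was made on them.

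The LRP co-receptors, which pair with a frizzled to pass the signal to β-catenin, had fold changes of opposite sign, and only the drop of Lrp5 passed the test. Lrp5 had 1787, 1724 and 1994 normalised counts in wildtype and 1231, 1555 and 1280 in EVX1-Δfs libraries. All EVX1-Δfs libraries were lower, with replicate 2 the nearest to wildtype. The means were 1835 ± 141 and 1355 ± 175 (SD, n = 3), and the log2 fold change was -0.44 ± 0.12 (SE), with an interval of -0.68 to -0.20 and a limma adjusted p of 0.0323. By pair the log2 differences were -0.54, -0.15 and -0.64. The gene spans chr19:3584825-3686564 on the minus strand in 23 exon blocks.

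Lrp6, also in 23 exon blocks at chr6:134396494-134516983 on the minus strand, had 870, 877 and 729 normalised counts in wildtype and 1008, 989 and 856 in EVX1-Δfs libraries. EVX1-Δfs EBs had more in all 3 pairs, by log2 differences of 0.21, 0.17 and 0.23, but the groups overlapped. The test gave 0.21 ± 0.12 (SE), with an interval of -0.04 to 0.45 and a limma adjusted p of 0.305.

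The ratio of Lrp5 to Lrp6 within a library does not depend on the scaling between libraries. Per kb it was 3.90, 3.73 and 5.19 in wildtype and 2.32, 2.99 and 2.84 in EVX1-Δfs libraries, so the groups did not overlap (4.28 ± 0.797 and 2.71 ± 0.352, SD, n = 3). Lrp5 was the more abundant co-receptor transcript in all 6 libraries. The ratio was not corrected for GC content, which was 58.6% for Lrp5 and 46.5% for Lrp6. With GC and length trends removed, the log2 fold changes were -0.31 for Lrp5 and 0.07 for Lrp6, against -0.44 and 0.21 before.

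Of the dishevelled adaptors, which relay the signal from frizzled both to β-catenin and to planar polarity, Dvl2 fell and Dvl1 did not pass the test. Dvl2 had 1329, 1305 and 1398 normalised counts in wildtype and 846, 1227 and 794 in EVX1-Δfs libraries. The wildtype values were close together, while EVX1-Δfs replicate 2 lay near wildtype and the other EVX1-Δfs libraries far below. The means were 1344 ± 48.3 and 956 ± 237 (SD, n = 3), and on the log2 scale the fold change was -0.52 ± 0.14 (SE), with an interval of -0.80 to -0.24 and a limma adjusted p of 0.0299. By pair the log2 differences were -0.65, -0.09 and -0.82, so pair 2 gave the smallest difference for Fzd10, Lrp5 and Dvl2.

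Dvl2 lies at chr11:69814097-69825803 on the plus strand, and 1151 of its 6298 exon bases are also exon bases of Acadvl, which runs on the opposite strand and encodes an enzyme of fatty acid oxidation. The reads can be told apart there only if they were counted by strand. Acadvl, named after its values were seen, had 405 ± 31.4 normalised counts in wildtype and 346 ± 27.7 in EVX1-Δfs libraries (SD, n = 3), which differed by -0.23 ± 0.13 (SE) on the log2 scale at a limma adjusted p of 0.298. The part of Acadvl reads in the Dvl2 values was not tested.

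Dvl1, at chr4:155221511-155233412 on the plus strand, had 903, 771 and 635 normalised counts in wildtype and 883, 757 and 691 in EVX1-Δfs libraries. Replicate 1 was the highest and replicate 3 the lowest library in both genotypes, and the groups overlapped. The log2 fold change of 0.02 ± 0.13 (SE) had an interval of -0.26 to 0.30 and a limma adjusted p of 0.945. The ratio of Dvl2 to Dvl1 per kb was 1.17, 1.34 and 1.75 in wildtype and 0.760, 1.29 and 0.911 in EVX1-Δfs libraries, which overlapped in the second EVX1-Δfs library.

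**Figure D3:**
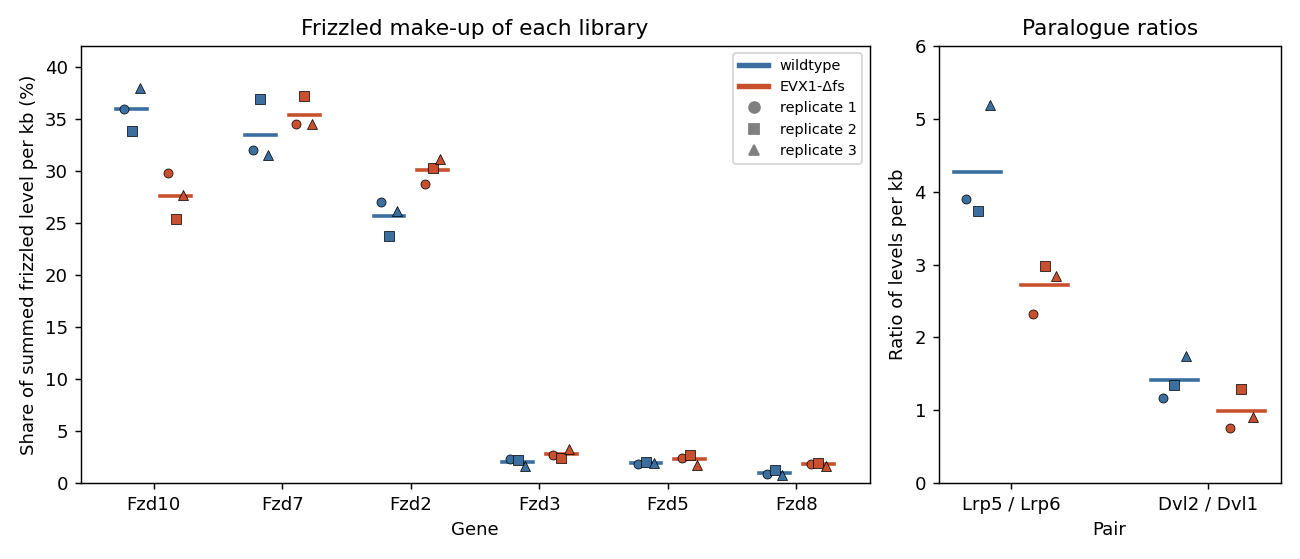
Left, share of each frizzled gene in the summed level per kb of the 6 frizzled genes (%) in each library. Right, ratios of levels per kb within paralogue pairs, not corrected for GC content. Lines are means of 3 libraries, colours genotypes and symbols replicate numbers. The Fzd10 share was 33.9% to 37.9% in wildtype and 25.4% to 29.8% in EVX1-Δfs libraries, and the Lrp5 to Lrp6 ratio averaged 4.28 in wildtype and 2.71 in EVX1-Δfs libraries, without overlap.

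The 3 calls were close to the threshold and depended on how the libraries were modelled. With the replicate number as a block, which compares libraries within pairs, the limma adjusted p was 0.0733 for Fzd10, 0.0734 for Lrp5 and 0.0700 for Dvl2, so none of the 10 genes was called, where 1.11% of all genes were called lower. The direction was the same in all 3 pairs for each of these genes, which follows from groups that did not overlap and adds no support. On the recovered reads the calls of Fzd10, Lrp5 and Dvl2 held with edgeR (adjusted p of 0.0347, 0.0357 and 0.0379, with 2.91% of all genes called lower) and with DESeq2 (0.0127, 0.0110 and 0.0226, with 4.45% called lower). Without wildtype replicate 2 all 3 were called, without EVX1-Δfs replicate 2 Lrp5 (limma adjusted p of 0.0219) and Dvl2 (0.00459) were, and without any of the other 4 libraries none was. Fzd8 was not called in any setting, and without 1 library its limma adjusted p ranged from 0.0535 to 0.197.

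**Figure D4:**
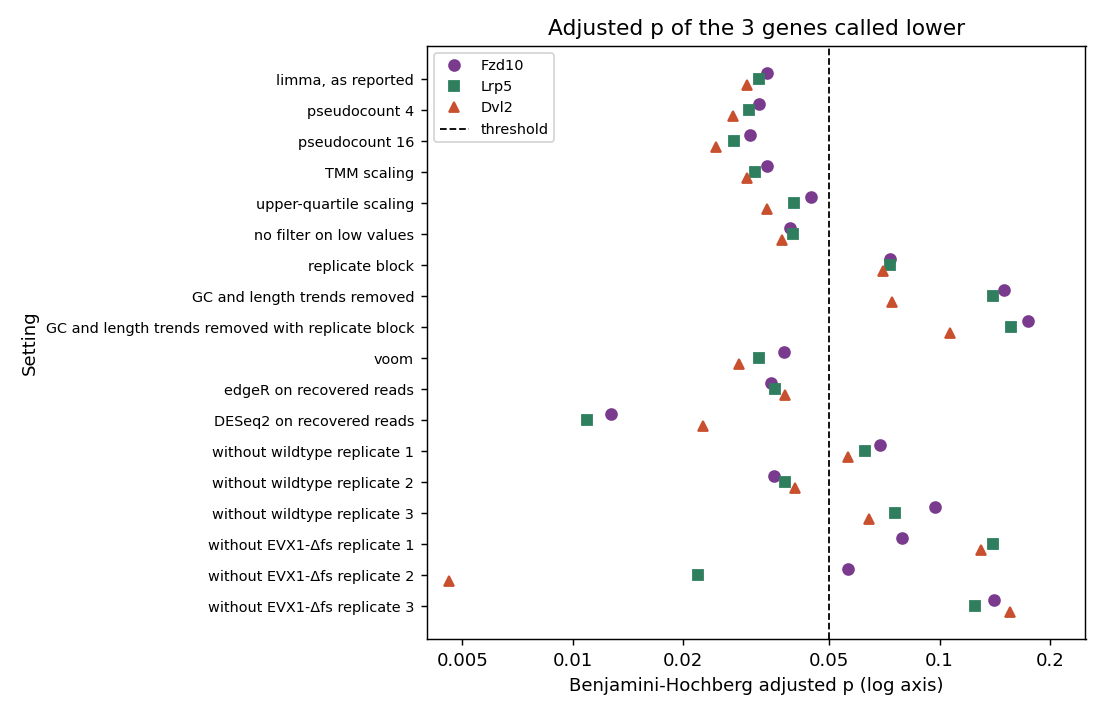
Benjamini-Hochberg adjusted p (log axis) of Fzd10, Lrp5 and Dvl2 under each setting of the analysis, with the threshold of 0.05 dashed. The genes lie left of it in the reported fit, at 0.0299 to 0.0338, and right of it with the replicate block, at 0.0700 to 0.0734.

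Fold changes across all genes followed the GC content of the exons, with a Spearman correlation of -0.460 over 12978 genes, which are not independent. The members called lower are GC-rich, at 56.5% for Fzd10, 58.6% for Lrp5 and 56.2% for Dvl2. Fzd2 (56.6%), Fzd8 (57.0%) and Dvl1 (59.7%) were similarly GC-rich and had fold changes above 0, while Lrp6 at 46.5% and Fzd3 at 43.7% lie where most genes had positive fold changes. After per-library trends on GC content and exon length were removed, the log2 fold changes were -0.30 for Fzd10, -0.31 for Lrp5 and -0.43 for Dvl2, with limma adjusted p of 0.150, 0.140 and 0.0741. None of the 10 genes was called lower, against 1.39% of the genes in that fit. The same step gave 0.98 for Fzd8 (limma adjusted p of 0.0705), 0.23 for Fzd3 and 0.07 for Lrp6. Whether GC content had a part in the receptor differences was not tested.

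**Figure D5:**
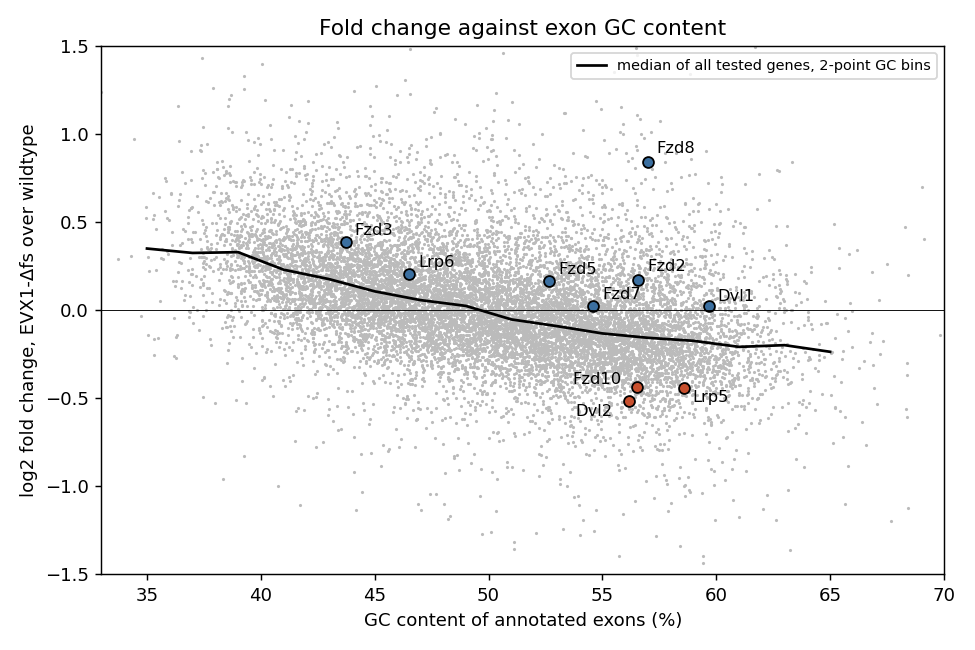
Log2 fold change of EVX1-Δfs over wildtype against the GC content of annotated exons (%). Grey points are the tested genes within the axes, the black line their median in GC bins, red points the 3 genes called lower and blue points the other 7. Red points lie below the line at 56.2% to 58.6% GC, and Fzd8 lies above it at 57.0%.

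RefSeq promoters (GRCm38.p6, from 250 bases before to 50 after the start) were matched for 5 of the 10 genes, Dvl1, Dvl2, Fzd5, Fzd7 and Fzd10. Their GC content ran from 62.0% to 77.7%, against a median of 52.7% over 32851 promoters, and each held 20 to 45 CpG dinucleotides against a median of 7. Searched on both strands, none of the 5 windows held CTTTGA (present in 16.0% of all promoters), TAATTA (5.29%) or TATAAA (13.6%). This describes the letters of these windows only.

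The paralogues that complete the families were examined in the same fit, and none of the 5 passed the test. Fzd1, which is closest to Fzd2 and Fzd7, averaged 133 ± 2.50 normalised counts in wildtype and 108 ± 21.1 in EVX1-Δfs libraries (SD, n = 3), with groups that did not overlap, a log2 fold change of -0.32 ± 0.18 (SE) and a limma adjusted p of 0.278. Dvl3 averaged 279 ± 26.1 and 238 ± 24.9 and was lower in all 3 pairs, at -0.23 ± 0.14 (SE) and a limma adjusted p of 0.331. Fzd4, Fzd6 and Fzd9 had overlapping groups and log2 fold changes of 0.10, 0.08 and 0.19, with adjusted p of 0.700 to 0.836. As a share of the summed per-kb level of Dvl1, Dvl2 and Dvl3, Dvl2 made up 50.4% ± 4.33 in wildtype and 42.4% ± 5.96 in EVX1-Δfs libraries, which overlapped.

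Around the receptors, a further 105 genes of the pathway were listed by role, of which 92 were tested. In this wider list 12 genes fell and 2 rose, with 6 lower and 2 higher under the replicate block, and the median log2 fold change was -0.04. The shares over all genes tested were 2.95% lower and 2.08% higher, and 1.11% lower with the block. These lists too were chosen with earlier results of these data known, so their calls are no independent evidence against these shares. Ligands held the most calls. Of 14 WNT genes tested 5 fell, and 4 of them with the block. Wnt5a, a ligand mostly of the β-catenin-independent branch, went from 526 ± 72.8 to 255 ± 41.8 normalised counts, a log2 fold change of -1.04 at a limma adjusted p of 1.81e-04. Wnt3a had the largest drop of the ligands named, -1.75, on mean counts of 39.8 and 12.2 (limma adjusted p of 0.0131, but 0.0564 with the block), and Wnt2 fell by 1.26 on the log2 scale (0.0122).

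Among 8 secreted antagonists tested 2 were called higher and none lower, and the median log2 fold change of the 8 was -0.07. Frzb, named after its values were seen, went from 281 ± 141 to 158 ± 10.9 normalised counts. Its log2 fold change was -0.72, at a limma adjusted p of 0.0527. Cer1, named by the study among antagonists of the WNT pathway, is also one of the anterior endoderm markers. It went from 33.9 ± 14.3 to 377 ± 72.8 normalised counts (log2 fold change 3.49, limma adjusted p of 2.37e-09). Sfrp1, a secreted protein with a frizzled-like cysteine-rich domain, went from 276 ± 64.1 to 445 ± 23.6 (0.72, 0.0105).

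Genes that act beside the receptors in the membrane mostly did not pass the test. Of 6 alternative receptors and co-receptors tested, Gpr124, an adhesion receptor that serves some WNT ligands, fell from 485 ± 229 to 235 ± 43.7 normalised counts (log2 fold change -0.95, limma adjusted p of 0.0173, or 0.0579 with the replicate block). None of the 7 R-spondin and receptor turnover genes tested and none of the 5 genes for maturation of receptors and ligands was called.

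Downstream of the receptors, calls lay with nuclear effectors and with single genes among the dishevelled partners and the planar polarity genes. Nkd1, a feedback inhibitor that binds dishevelled, was the only one of 10 dishevelled partners called, falling from 946 ± 74.2 to 637 ± 42.4 normalised counts (log2 fold change -0.57, limma adjusted p of 0.00729, or 0.0293 with the replicate block). Of 8 planar polarity genes Vangl1 fell (-0.42, limma adjusted p of 0.0424, or 0.0727 with the replicate block). No gene of the 11 in the destruction complex and β-catenin list was called. Of 10 nuclear effectors 3 fell, Lef1, a β-catenin partner on DNA (-0.58, limma adjusted p of 0.0168), T, a streak transcription factor and WNT target that is also in the streak marker list (-0.58, 0.0122, or 0.0566 with the block), and the β-catenin cofactor Bcl9l (-0.48, 0.0215, or 0.0564 with the block).

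Several of these pathway calls also depended on single libraries or on the processing. Without EVX1-Δfs replicate 1 the limma adjusted p was 0.0891 for Gpr124, 0.108 for Vangl1, 0.0748 for T, 0.0578 for Lef1, 0.0980 for Bcl9l, 0.0613 for Wnt3a and 0.0579 for Wnt2. Other single libraries that ended a call were wildtype replicate 2 and EVX1-Δfs replicate 2 for Gpr124, wildtype replicate 3 for Wnt3a and Wnt2, wildtype replicate 2 and EVX1-Δfs replicate 3 for Lef1, wildtype replicates 1 and 2 and EVX1-Δfs replicate 3 for Bcl9l, and each of the 6 libraries for Vangl1. Gpr124 was -0.59 without wildtype replicate 2 (limma adjusted p of 0.0652), and DESeq2 gave it an adjusted p of 0.107. With GC and length trends removed Bcl9l was -0.31 (limma adjusted p of 0.141), and the adjusted p was 0.117 for Vangl1 and 0.0530 for Gpr124. Wnt3a was -0.998 with a pseudocount of 16. The calls of Nkd1, Wnt5a, Cer1 and Sfrp1 held in every alternative tried.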

How the data were processed

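RNA was sequenced from 3 wildtype and 3 EVX1-Δfs day 4 EB samples. According to the labels and the published methods, the authors purified mRNA, sequenced it on an Ion Proton, mapped reads to mm9 with TopHat2 and TMAP, counted them per gene with HTSeq at standard settings and used DESeq2. Versions and annotation are not given in the sources used here. The values deposited are a non-negative signal: for each gene, the reads counted in a library over a scaling factor of that library. Undoing that factor gave values within 0.001 of whole reads for 100% of the table, and the factors lay within 0.00577% of DESeq2's size factors. One read was worth 0.885 to 1.15 normalised counts.

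The test was limma (3.58.1, with a mean-variance trend) on log2(normalised count + 1) over 13136 genes with at least 10 in at least 3 libraries. Fold changes on this scale understate those of low genes. Benjamini-Hochberg adjusted p under 0.05 was called. The p-values measure the spread among 3 differentiations of each line. Alternatives were edgeR's quasi-likelihood test (4.0.16, 382 lower and 314 higher genes) and DESeq2 (1.42.0, 517 and 284) on the recovered reads, voom, TMM and upper-quartile scaling, pseudocounts of 4 and 16, no filter, a replicate block, removal of per-library GC and length trends (natural splines of 5 degrees of freedom), and leaving out each library. The limma script was tested on simulated data. Analyses ran in R 4.3.3 and Python 3.11.15.

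Per the labels, samples being compared were started together, so the replicate number was taken to pair them, which the labels do not state by number. Same-numbered libraries deviated from their group means with correlations of 0.111, 0.00933 and -0.101 over 13136 genes.

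Genes were placed on NCBIM37 with GENCODE vM1, where 21981 of 23353 symbols (94.1%) matched. HTSeq's standard settings count by strand, which was not tested on the reads.

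The 10 genes and all gene lists were chosen with earlier results of these data known. Named were the 10 genes, their 5 paralogues and, per pathway list and direction, at most 3 called genes of largest absolute log2 fold change. Some genes that met this rule are not reported here.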

Additional observations from a re-analysis of the deposited data

How the results depend on the processing

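Across all genes, 387 were called lower and 273 higher. These counts became 146 and 76 with the replicate block, 180 and 99 with GC and length trends removed, and 133 and 71 with both. Leaving out 1 library gave 140 (without EVX1-Δfs replicate 1) to 362 lower and 80 (without EVX1-Δfs replicate 3) to 340 higher. Upper-quartile scaling gave 325 lower and 370 higher, so 53.2% of calls were higher against 41.4%. The 3 receptor genes called lower became 0 with the replicate block, with the trends removed and with both, and 0 to 3 when 1 library was left out, being 0 without replicate 1 or 3 of either genotype. The 12 pathway genes called lower became 6 with the block and 6 with both, and 4 to 11 with 1 library left out. Fzd10, Lrp5 and Dvl2 kept their direction in all 17 alternatives and lost the call in 22 of 51 values. Their groups did not overlap, so leaving out 1 library could not turn the direction. The block left the fold changes as they were, so neither adds support for the direction. Of the members that were not called, signs turned in 5 of 119 values, all with 1 library left out: the log2 fold change ranged from -0.0487 to 0.393 for Fzd5, from -0.0847 to 0.0856 for Fzd7 and from -0.110 to 0.143 for Dvl1. The ranges were -0.0177 to 0.201 for Fzd4 and -0.0271 to 0.131 for Fzd6, and the value of Fzd6 was -0.0177 once trends were taken out, whether or not the block was added. The cause of these changes was not tested. Fzd8 had 17 to 44 reads per library, and the part of depth in its missed call was not tested.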
